A study of Gallus gallus with 3 samples.

Results

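The genes described here encode the factors that start and extend protein chains and the enzymes that charge transfer RNAs with amino acids. They were chosen by name from the table of read counts: genes beginning with EIF or EEF (EIF4A3 and EIF2AK2 were left out), genes named by 1 letter and ARS or ARS2, and EPRS. Of 80 such genes among 11877 listed, 78 had at least 30 counts summed over the 3 libraries: 38 initiation, 9 elongation and 31 synthetase genes. EIF4E1B (1 count in all) and EIF4E3 (6 counts) fell short of this minimum, and the member nearest above it was EEF1A2, with 383. All 78 passed the filter on low counts. Initiation and elongation genes were assigned by the EIF or EEF in their names alone, so both classes also hold regulators. Several related genes, such as EIF3F, EIF3G, EEF1G and EIF5A, had no read counts listed under these names and were not analysed here.

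RNA was measured in chicken DT40 cells, a B cell line from a bursal lymphoma, of the DT40-ASF line, which the labels call reconstituted. As background, cells of this line lack a working chicken SRSF1 gene and live on the human protein, formerly called ASF, which the control cells therefore share. SRSF1 governs splice site choice, and SRSF1-3 is one of its alternatively spliced forms. By the genotype in the labels, SRSF1-3 was the form knocked in, and both clones carry that genotype. The knock-in libraries came from 2 transfected clones, clone 47 and clone 41, and the control was 1 library of untransfected cells, so transfection, clonal history and the knock-in cannot be told apart. Each clone gave 1 library. The labels do not state whether cultures were repeated, so tests measure the spread between these 2 libraries, estimated largely across genes. Intervals of single libraries cover counting error only.

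Library totals lay between 41760372 and 44868987 counts. SRSF1 had 5645 counts in clone 47, 1991 in clone 41 and 1402 in the control, or 4.16× control in clone 47 and 1.58× in clone 41. Whether these reads came from chicken, human or knock-in transcripts cannot be told from the counts. All 10 B cell markers searched for were detected, with a summed level of 546 CPM (counts corrected for sequencing depth) in clone 47, 784 in clone 41 and 885 in the control. Single B cell markers ran from 0.262× control (IRF4) to 1.22× (EBF1) in clone 47, and from 0.632× (BACH2) to 1.14× (CD74) in clone 41. T and NK cell markers (7 of 7 listed) summed to 33.1, 20.8 and 40.4 CPM in clone 47, clone 41 and the control. Of these, CD4 had 0 counts in both clones, while CD8A had 920 in clone 47, 359 in clone 41 and 1011 in the control. Myeloid markers (5 of 6) summed to 197, 160 and 147 CPM in the same libraries. CSF1R had at most 1 count in any of them. In clone 47, clone 41 and the control, CEBPB had 5140, 2415 and 2620 counts, SPI1 3165, 2614 and 2341, and MPEG1 230, 1435 and 1627. Fibroblast and epithelial markers (6 of 7) summed to 18.8, 38.8 and 26.3 CPM, and erythroid and thrombocyte markers were represented by GP9 alone, with 0 counts in both clones and 1 in the control. The part of these differences in the results below was not tested.

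Protein synthesis begins when eIF2 carries the initiator tRNA to the small ribosomal subunit, which eIF3, eIF1 and eIF1A bind, and the eIF4F complex recruits it to the capped mRNA. In elongation, eEF1A delivers charged tRNAs, eEF1B reloads eEF1A with GTP, and eEF2 moves the ribosome along the mRNA. Aminoacyl-tRNA synthetases supply the charged tRNAs, one set in the cytosol and another in mitochondria. Phosphorylation of eIF2 alpha by stress-responsive kinases and sequestration of the cap-binding protein by 4E-BP are the best known brakes on this machinery.

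The medians of the 3 classes lay further apart in clone 47 than in clone 41. In RNA from a whole culture, a lower level in every cell and a lower share of cells expressing a gene cannot be told apart. In clone 47 the median log2 ratio to the control was -0.79 for elongation genes, 0.05 for initiation genes and 0.06 for synthetase genes, beside 0.00 for all 10203 genes tested. In clone 41 the medians were 0.12 for elongation, 0.09 for initiation and 0.16 for synthetase genes, beside -0.00 for all genes. The range in clone 47 ran from -1.79 for EIF3H to 1.22 for EIF1B, both initiation genes, so a median near 0 did not mean that members of a class were alike. Elongation genes took up 0.786% of all counts in clone 47, 1.67% in clone 41 and 1.5% in the control. For initiation genes these shares were 1.98%, 1.97% and 1.90%, and for synthetase genes 0.910%, 1.01% and 0.917%, in clone 47, clone 41 and the control.

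**Figure D1:**
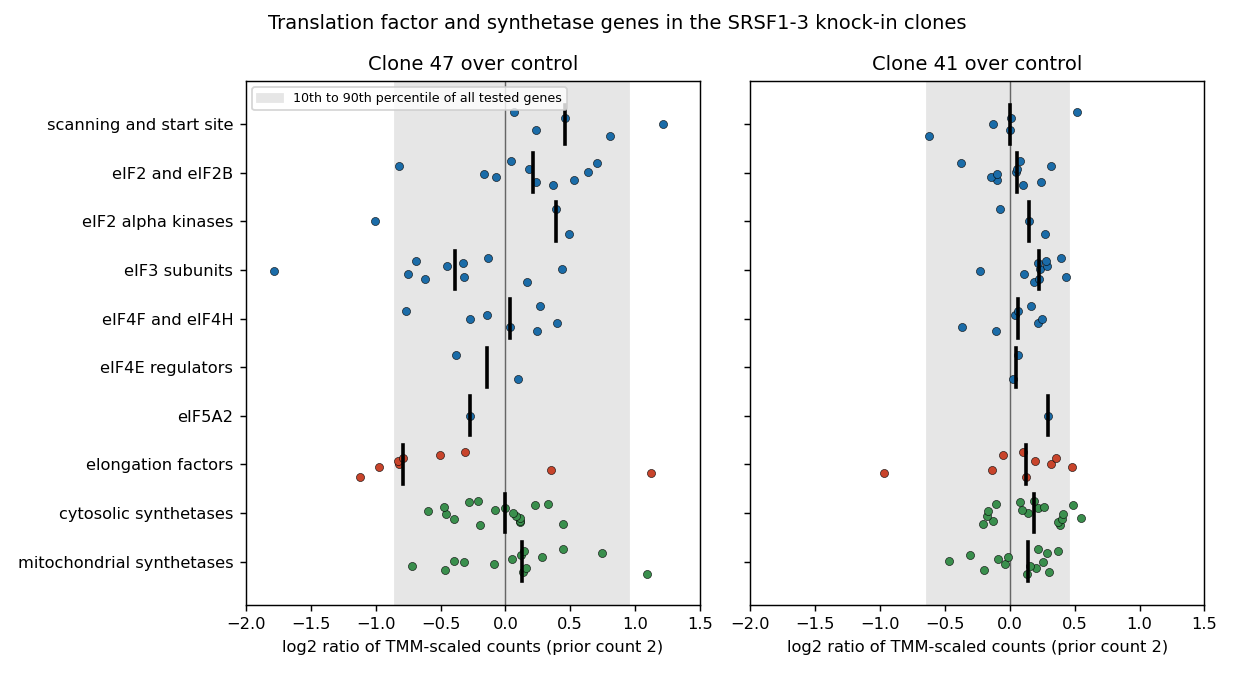
Each point is 1 of the 78 genes, placed on the horizontal axis by its log2 ratio of scaled counts to the control, for clone 47 (left) and clone 41 (right); black bars are group medians, colours mark the classes and the grey band spans the 10th to 90th percentile of all tested genes. The elongation median lies at -0.79 in clone 47 and 0.12 in clone 41, and the eIF3 median at -0.39 in clone 47 and 0.23 in clone 41.

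The test of knock-in against control, with the 2 clones as replicates, used a spread between clones that was estimated largely across genes. It asked which genes stood apart from the control beyond that spread, not beyond each gene's own. EIF2B1, for example, had log2 ratios of 0.23 in clone 47 and 0.24 in clone 41, but an SE of 0.50. None of the 78 members passed edgeR's quasi-likelihood test (adjusted p = 1 for each), and none had an unadjusted p below 0.05. Over all genes the test called 0.0%, and 81 genes had an unadjusted p below 0.05. The legacy form of the test and DESeq2 each called 2 genes and limma-voom 1, none of them a member. The lowest member p was that of EIF3H, 0.115 in edgeR and 0.0424 in limma-voom, where its adjusted p was 1.00.

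By size alone, clone 47 had 6 members that differed from the control by 2-fold or more, 3 higher and 3 lower, which is 7.69% of members beside 17.0% of all genes tested (9.42% higher and 7.57% lower). In clone 41 no member did, beside 8.75% of all genes. Members were mostly well expressed: among all genes with a mean of at least 100 CPM, as 55 of the members had, 5.32% were 2-fold from the control in clone 47 and 0.077% in clone 41. At 1.5-fold, 7 members were higher and 14 lower in clone 47, beside 18.6% higher and 17.2% lower of all genes. In clone 41 EEF1A2 and EIF1, both lower, were past 1.5-fold, beside 17.9% of all genes in either direction.

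Counting sides only, 40 members were higher and 38 lower than the control in clone 47, beside 50.1% and 49.8% of all genes. In clone 41, 54 were higher and 24 lower, beside 49.8% and 50.1% of all genes. With total-count scaling these were 46 and 32, beside 4087 higher and 6111 lower of the 10203 genes. Both clones lay on the same side of the control for 32 members, which is 41.0% beside 51.8% of all genes. Of these, 24 were higher in both (30.8%, beside 25.9% of all genes) and 8 lower in both (10.3%, beside 25.9%). With total-count scaling 20 were higher and 11 lower in both, beside 2298 and 2922 of the 10203 genes. On log2(FPKM + 1) 18 were higher and 8 lower in both, beside 2205 and 3119 of 10168 genes. The most common pattern was lower in clone 47 with higher in clone 41, seen in 30 members (38.5%, beside 23.9% of all genes and 32.8% of those with at least 100 CPM). The last share covers only genes at that level, as 55 of the 78 members were, so it is not like for like. With total-count scaling this pattern was seen in 26 members, and in 1786 of the 10203 genes. The opposite pattern was seen in 16 members (20.5%, beside 24.2% of all genes).

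Elongation factor genes were the class with the lowest median in clone 47. EEF1A1, which encodes the main form of eEF1A, had 163199 counts in clone 47, 358687 in clone 41 and 367599 in the control. With both libraries scaled to a common size, it stood at 0.459× control in clone 47 (95% interval of counting error 0.456 to 0.462) and 1.09× in clone 41 (1.08 to 1.09). Clone 47 thus stood apart from both other libraries for the most abundant of the 78 mRNAs, at an FPKM (fragments scaled to transcript length and library size, the authors' values) of 1701 in clone 47, 3812 in clone 41 and 3692 in the control.

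Clone 47 was also the lowest library for the partners of eEF1A. EEF1B2, a nucleotide exchange subunit of eEF1B, had an FPKM of 518 in clone 47, 1356 in clone 41 and 1010 in the control, and by counts was at 0.510× control in clone 47 (0.504 to 0.517) and 1.39× in clone 41 (1.38 to 1.41). EEF1D, another exchange subunit, was at 0.565× in clone 47 and 1.24× in clone 41. EEF2, the translocase, had 73574 counts in clone 47, 151290 in clone 41 and 131773 in the control, or 0.577× (0.572 to 0.582) and 1.28× (1.27 to 1.29) in clone 47 and clone 41. In each of these 4 genes clone 47 was lowest; the fitted log2 fold changes of both clones together were -0.37 for EEF1A1 (SE 1.11), -0.07 for EEF1B2 (SE 0.67), -0.15 for EEF1D (SE 0.70) and -0.11 for EEF2 (SE 0.79).

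The class held 5 further genes. EEF1E1, which despite its name is also a scaffold of the multi-synthetase complex, was at 0.564× control in clone 47 and 1.14× in clone 41. EEFSEC, the elongation factor for selenocysteine, was at 0.808× in clone 47 and 1.07× in clone 41. EEF2K, the kinase that inhibits eEF2, was lower in both clones, at 0.705× in clone 47 (0.640 to 0.776) and 0.963× in clone 41 (0.879 to 1.05, an interval that includes 1).

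Higher than the control in clone 47 and lower in clone 41 were 2 genes of the class. EEF1AKMT1, a methyltransferase of eEF1A in human cells, was at 1.28× in clone 47 and 0.908× in clone 41. EEF1A2, the form of eEF1A that in mammals is typical of muscle and neurons, had 228 counts in clone 47, 48 in clone 41 and 107 in the control, or 2.2× (1.74 to 2.80) for clone 47 and 0.50× (0.348 to 0.709) for clone 41. Its FPKM was 2.18, 0.526 and 1.00 in clone 47, clone 41 and the control, so EEF1A1 exceeded it 779-fold in clone 47, 7243-fold in clone 41 and 3676-fold in the control. Reads of EEF1A1 and EEF1A2, which are closely similar, may have been divided unevenly.

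**Figure D2:**
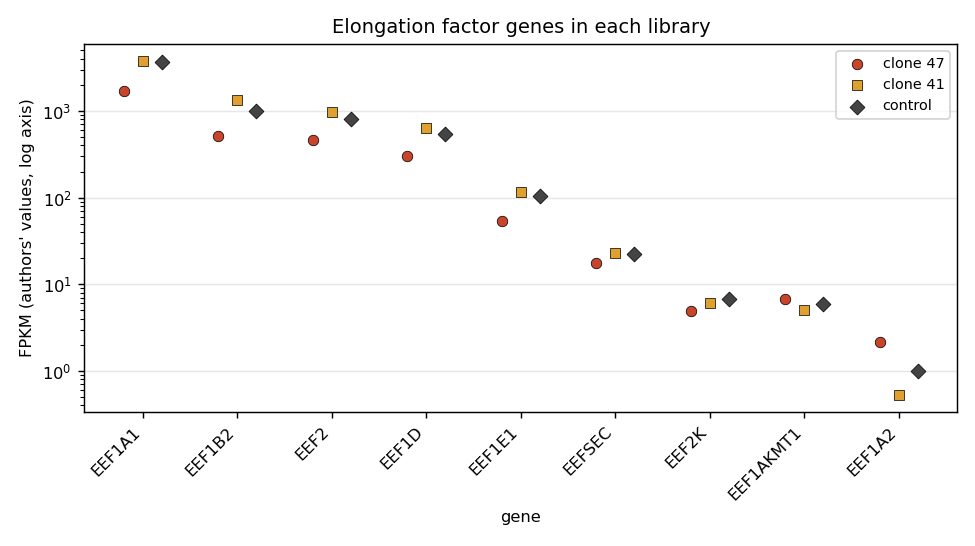
Authors' FPKM on a log axis for the 9 EEF genes, ordered by control level, with 1 point per library (clone 47, clone 41 and control from left to right for each gene). Clone 47 is the lowest library for the 7 genes from EEF1A1 to EEF2K and the highest for EEF1AKMT1 and EEF1A2.

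Of the 9 EEF genes, 5 were at least 1.5-fold lower than the control in clone 47 (EEF1A1, EEF1B2, EEF1D, EEF1E1 and EEF2), beside 17.2% of all genes and 14.7% of those with at least 100 CPM. The same 5 were at least 2-fold lower in clone 47 than in clone 41, beside 9.08% of all genes. Under each scaling tried, 7 of the 9 lay below the control in clone 47 and 6 of the 9 above it in clone 41. Of all 10203 genes, 5085 lay below the control in clone 47 and 5082 above it in clone 41, and 4708 and 4087 with total-count scaling. EEF1A1 alone made up 0.391% of counts in clone 47, 0.845% in clone 41 and 0.819% in the control, and the other 8 genes together 0.395%, 0.826% and 0.676%.

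Among initiation genes, the eIF3 subunits, which form the scaffold on the small ribosomal subunit, were mostly lower than the control in clone 47 and higher in clone 41, as the elongation genes were. Their median log2 ratio over 10 subunits was -0.39 in clone 47 and 0.23 in clone 41, with 8 of 10 lower than the control in clone 47, beside 49.8% of all genes, and 9 of 10 higher in clone 41, beside 49.8% of all genes. EIF3H had 5176 counts in clone 47, 14113 in clone 41 and 18468 in the control. It was at 0.290× control in clone 47 (0.281 to 0.299) and 0.852× in clone 41 (0.833 to 0.871), the lowest ratio of any member in clone 47 and the only eIF3 subunit below the control in clone 41. Its fitted log2 fold change was -0.81 (SE 0.49).

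EIF3E, EIF3L and EIF3B were at 0.593×, 0.620× and 0.651× control in clone 47 and at 1.08×, 1.22× and 1.17× in clone 41. EIF3J, EIF3K, EIF3D and EIF3M lay between 0.733× and 0.912× in clone 47 and between 1.16× and 1.35× in clone 41. The exceptions were EIF3A, the largest subunit, at 1.12× in clone 47 and 1.14× in clone 41, and EIF3I, at 1.36× (1.33 to 1.39) for clone 47 and 1.18× (1.15 to 1.20) for clone 41. EIF3I, with an FPKM of 284 in clone 47, 234 in clone 41 and 207 in the control, was thus highest in the library where most other subunits were lowest. Between subunits the FPKM differed up to 5.26-fold in clone 47, 5.80-fold in clone 41 and 6.09-fold in the control.

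The 3 subunits of eIF2, which act as 1 trimer, did not share a direction. EIF2S1, the alpha subunit that stress kinases phosphorylate, had 6673 counts in clone 47, 13616 in clone 41 and 12159 in the control, or 0.567× (0.551 to 0.585) and 1.25× (1.22 to 1.28) in clone 47 and clone 41. EIF2S2, the beta subunit, ran the other way, with 73207 counts in clone 47, 32104 in clone 41 and 46517 in the control, or 1.63× (1.61 to 1.65) for clone 47 and 0.769× (0.758 to 0.780) for clone 41. EIF2S3L, listed in RefSeq as EIF2S3, the gamma subunit, was near the control, at 1.03× in clone 47 and 1.06× in clone 41. Per length, EIF2S2 exceeded EIF2S1 by 11.3-fold in clone 47, 2.33-fold in clone 41 and 3.84-fold in the control.

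eIF2B, the exchange factor that recharges eIF2 with GTP, showed smaller differences. EIF2B5, its catalytic subunit, was at 1.56× control in clone 47 and 1.03× in clone 41, and EIF2B2 at 1.44× for clone 47 and 0.935× for clone 41. EIF2B1 was higher in both, at 1.18× in clone 47 and in clone 41, while EIF2B4 was lower in both, at 0.893× for clone 47 and 0.932× for clone 41 by counts but at 1.02× by FPKM in clone 41, and EIF2B3 was lower in both, at 0.951× for clone 47 and 0.905× for clone 41. EIF2A and EIF2D, alternative carriers of initiator tRNA, were at 1.29× and 1.14× in clone 47 and at 1.07× and 1.04× in clone 41.

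Of the eIF2 alpha kinases, EIF2AK3 (PERK, the sensor of the endoplasmic reticulum) had 2749 counts in clone 47, 5680 in clone 41 and 5716 in the control. This put it at 0.497× control in clone 47 (0.475 to 0.520) and 1.11× in clone 41 (1.07 to 1.15). EIF2AK1, the heme-regulated kinase, was higher in both clones, at 1.4× in clone 47 and 1.21× in clone 41. EIF2AK4 (GCN2, which senses uncharged tRNA) was at 1.31× in clone 47 and 0.947× in clone 41. Clone 47 was therefore lowest for PERK and highest for the other 2 kinases.

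All 5 factors of scanning and start codon choice were higher than the control in clone 47, as were 50.1% of all genes. EIF1B had 9294 counts in clone 47, 3382 in clone 41 and 4129 in the control, or 2.33× (2.24 to 2.41) for clone 47 and 0.913× (0.872 to 0.956) for clone 41. Its close relative EIF1 had 60306, 20802 and 35688 counts in clone 47, clone 41 and the control, or 1.75× (1.72 to 1.77) for clone 47 and 0.650× (0.639 to 0.661) for clone 41. Both genes were highest in clone 47 and lowest in clone 41, and reads may have been shared between them. EIF5, which triggers GTP hydrolysis by eIF2, was at 1.37× in clone 47 and 1.01× in clone 41. EIF1AY, listed in RefSeq as EIF1AX, was at 1.18× and 1.00× in clone 47 and clone 41, and EIF5B, which joins the ribosomal subunits, at 1.05× for clone 47 and 1.43× for clone 41.

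**Figure D3:**
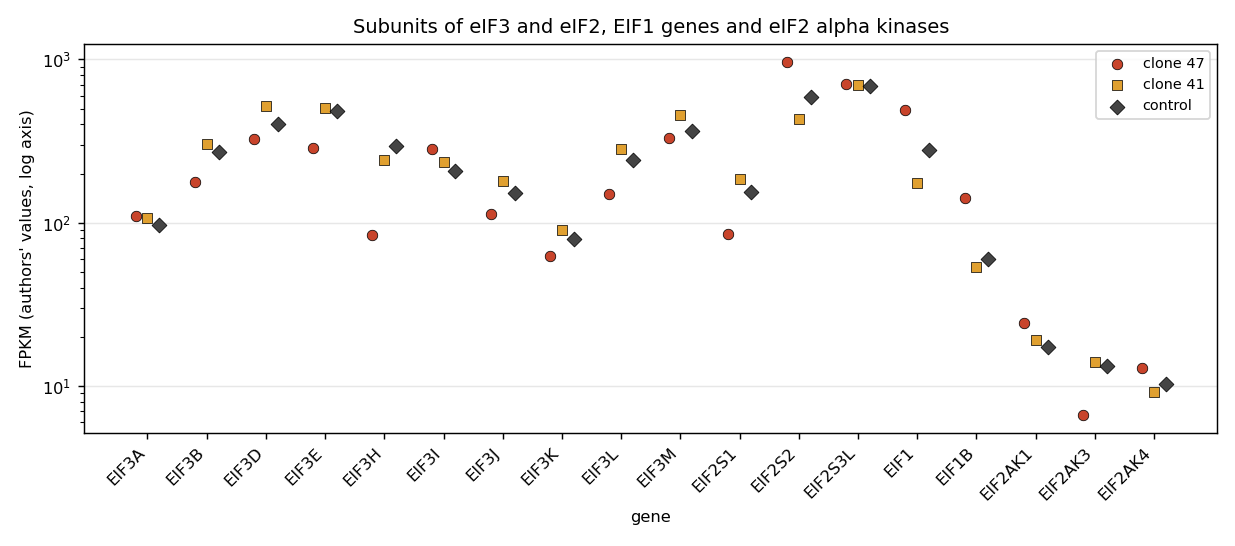
Authors' FPKM on a log axis for the 10 eIF3 subunits, the 3 eIF2 subunits, EIF1 and EIF1B and the 3 eIF2 alpha kinases, with 1 point per library (clone 47, clone 41 and control from left to right for each gene). EIF3H, EIF2S1 and EIF2AK3 are lowest in clone 47 (FPKM 83.5, 85.5 and 6.64), and EIF2S2, EIF1 and EIF1B are highest there (969, 487 and 142).

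The 7 eIF4F and accessory genes were less spread than the eIF3 subunits in clone 47, but not in clone 41. The standard deviation of their log2 ratios was 0.40 against 0.60 in clone 47 and 0.22 against 0.18 in clone 41. EIF4E, the cap-binding protein, had 18848 counts in clone 47, 13211 in clone 41 and 18997 in the control, or 1.03× (1.01 to 1.05) in clone 47 and 0.775× (0.758 to 0.793) in clone 41, so that here clone 41 stood apart. EIF4EBP1, which encodes the repressor 4E-BP1, was at 1.07× (1.04 to 1.10) in clone 47 and 1.02× (0.988 to 1.05) in clone 41. The FPKM ratio of EIF4EBP1 to EIF4E was 4.22 in clone 47, 5.41 in clone 41 and 4.13 in the control. EIF4G1, the scaffold of eIF4F, was at 0.828× in clone 47 and 1.19× in clone 41, and the log2 fold change fitted to both clones, 0.01 (SE 0.50), was below 0 with total-count scaling and on FPKM.

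The related scaffold EIF4G3 was at 0.588× control in clone 47 and 1.05× in clone 41, and EIF4G2 at 0.907× for clone 47 and 1.03× for clone 41. The helicase gene EIF4A2 was at 1.18× in clone 47 and 0.927× in clone 41, while its cofactor EIF4H was at 1.21× for clone 47 and 1.12× for clone 41. EIF4E2, a cap-binding relative linked to repression, was at 1.32× in clone 47 and 1.16× in clone 41, and EIF4ENIF1, the transporter of eIF4E, at 0.766× for clone 47 and 1.05× for clone 41. EIF5A2, a form of the hypusine-bearing factor eIF5A, was counted with the initiation genes by its name only. Its level was 0.828× control in clone 47 and 1.23× in clone 41.

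Of the synthetase genes, 1 of 31 was at least 2-fold away from the control in clone 47, beside 17.0% of all genes. Of the elongation genes 2 of 9 were, EEF1A1 lower and EEF1A2, with a mean of 2.93 CPM, higher. Of the initiation genes 3 of 38 were. The 17 cytosolic enzymes had a median log2 ratio of -0.00 in clone 47 and 0.18 in clone 41, and the 14 mitochondrial ones 0.13 in clone 47 and 0.14 in clone 41. In the control the cytosolic genes had a median FPKM of 135 (47.7 to 436) and the mitochondrial genes 12.2 (2.89 to 31.4). KARS and GARS were counted as cytosolic, although in vertebrates each also serves mitochondria.

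Cytosolic synthetase genes differed in direction, the most abundant, SARS and GARS, included. SARS, the seryl-tRNA synthetase, had an FPKM of 508 in clone 47, 583 in clone 41 and 434 in the control and was higher in both clones by counts, at 1.17× in clone 47 and 1.4× in clone 41. GARS, the glycyl enzyme, had 329, 545 and 436 FPKM in clone 47, clone 41 and the control, or 0.761× (0.752 to 0.771) for clone 47 and 1.32× (1.31 to 1.34) for clone 41 by counts. AARS, the alanyl enzyme, was at 0.871× in clone 47 and 1.31× in clone 41. MARS, the methionyl enzyme, was lower in both clones, at 0.662× in clone 47 (0.645 to 0.679) and 0.892× in clone 41 (0.871 to 0.914).

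EPRS, the double enzyme for glutamate and proline, had 39492 counts in clone 47, 30905 in clone 41 and 37666 in the control, or 1.08× (1.07 to 1.10) for clone 47 and 0.915× (0.901 to 0.928) for clone 41. Known partners of EPRS in the multi-synthetase complex of animals are IARS, LARS, MARS, QARS, RARS, KARS and DARS. Over these 8 genes the log2 ratio ran from -0.59 for MARS to 0.12 for EPRS in clone 47, and from -0.18 for IARS to 0.41 for KARS in clone 41, with medians of 0.03 and 0.18. The 9 other cytosolic enzymes had median log2 ratios of -0.08 in clone 47 and 0.18 in clone 41. In clone 47 CARS was highest, at 1.36×, and in clone 41 HARS, at 1.46×.

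Mitochondrial synthetases held the highest and the lowest synthetase ratios of clone 47. AARS2, the mitochondrial alanyl enzyme, had 3661 counts in clone 47, 1745 in clone 41 and 1778 in the control, or 2.13× (2.01 to 2.25) for clone 47 and 1.09× (1.02 to 1.17) for clone 41. TARS2, the threonyl enzyme, was higher in both clones, at 1.68× in clone 47 and 1.22× in clone 41. FARS2, the phenylalanyl enzyme, was at 0.607× in clone 47 (0.572 to 0.643) and 1.11× in clone 41 (1.06 to 1.17).

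MARS2, the mitochondrial methionyl enzyme, was lower in both clones like its cytosolic relative, with 1018 counts in clone 47, 898 in clone 41 and 1383 in the control, or 0.761× (0.701 to 0.826) for clone 47 and 0.724× (0.665 to 0.788) for clone 41. CARS2, the mitochondrial gene with the highest control FPKM, was at 1.10× and 1.23× in clone 47 and clone 41, with an FPKM of 30.02 in clone 47, 37.6 in clone 41 and 31.4 in the control. Fitted log2 fold changes of both clones together were 0.69 for AARS2 (SE 0.51), 0.54 for TARS2 (SE 0.50) and -0.43 for MARS2 (SE 0.56).

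For 12 pairings of a mitochondrial with a cytosolic gene of the same amino acid (EPRS enters 2 of them), the mitochondrial gene had the higher log2 ratio in 9 in clone 47 and in 8 in clone 41. The median difference of mitochondrial minus cytosolic log2 ratio was 0.19 in clone 47 and 0.12 in clone 41. Whether these counts depart from an even split was not tested. Over all 14 mitochondrial and 17 cytosolic genes, the medians of clone 41 lay in the reverse order, 0.14 against 0.18. Among the 12 pairings the widest gap in clone 47 was that of AARS2 and AARS, 1.09 against -0.20. In clone 41 the order of that pair was turned, 0.13 against 0.38. The phenylalanyl enzyme was left out, because FARSB, the gene of its cytosolic beta subunit, is not a member. In clone 47 the log2 ratio was -0.72 for FARS2 and 0.94 for FARSB, and in clone 41 it was 0.16 for both. At the median, cytosolic genes exceeded their mitochondrial relatives per length 8.0-fold in clone 47, 10.2-fold in clone 41 and 9.34-fold in the control. Level and ratio were also related among members at large. For clone 47 the median log2 ratio was 0.14 for the 23 members with a mean under 100 CPM and -0.08 for the 55 others. For clone 41 these medians were -0.02 and 0.16. The part of level in the pairing counts was not tested.

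**Figure D4:**
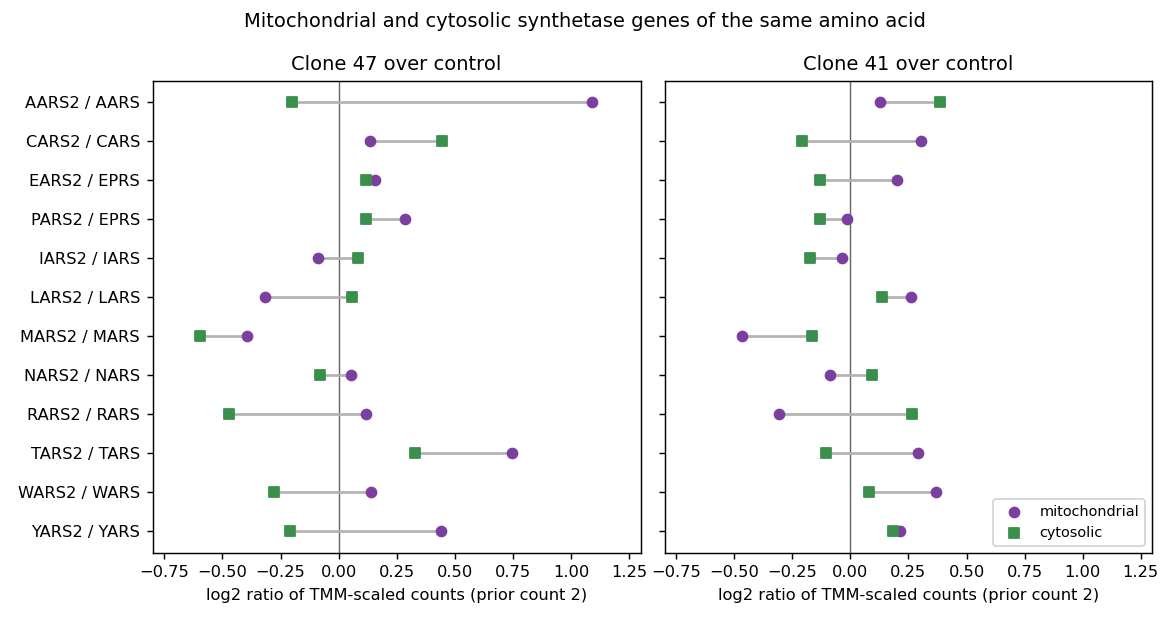
Each row joins the mitochondrial (circle) and the cytosolic (square) synthetase gene of 1 amino acid by their log2 ratios to the control, for clone 47 (left) and clone 41 (right). The mitochondrial gene lies to the right in 9 of 12 rows for clone 47 and in 8 of 12 for clone 41.

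Across the 78 genes, the control level and the ratio of a clone were related in opposite directions. The Spearman rho of control FPKM with the log2 ratio was -0.295 in clone 47 and 0.313 in clone 41, and Pearson's r on log2 FPKM was -0.349 for clone 47 and 0.348 for clone 41. Over 10103 tested genes with an FPKM above 0 in the control, rho was -0.167 in clone 47 and 0.132 in clone 41. These are descriptions across genes, which are not independent, and the control library enters both axes.

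**Figure D5:**
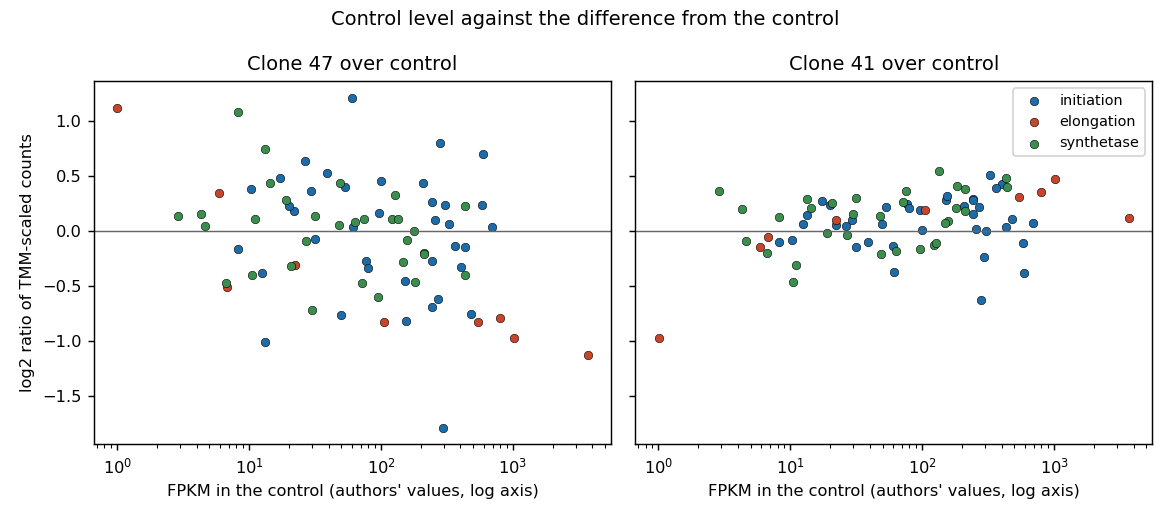
Authors' FPKM in the control (log axis) against the log2 ratio of scaled counts to the control, for clone 47 (left) and clone 41 (right), with 1 point per gene coloured by class. The 5 elongation genes above 100 FPKM lie between -1.12 and -0.79 in clone 47 and between 0.12 and 0.48 in clone 41.

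Set directly against clone 41, clone 47 had 4 members that were 2-fold or more higher and 8 that were lower by as much, or 15.4% of members beside 21.8% of all genes (12.7% higher and 9.08% lower). Those higher were EEF1A2 (4.40-fold), EIF1 (2.69-fold, interval 2.65 to 2.73), EIF1B (2.55-fold) and EIF2S2 (2.11-fold). Those lower were EIF3H, at 0.340× the level of clone 41, EEF1B2 at 0.366, EEF1A1 at 0.422, EIF2AK3 at 0.449, EEF2 at 0.451, EEF1D and EIF2S1 both at 0.454 and EEF1E1 at 0.494. No synthetase gene was 2-fold apart between the clones. With 1 library per clone no test of this difference was possible.

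Other genes of translation and its control, which are no members, passed no test either. Cap, poly(A) and helicase partners, 10 tested of 12 listed, had a median log2 ratio of -0.18 in clone 47 and 0.04 in clone 41, with 2 of 10 at least 1.5-fold lower and 1 of 10 higher in clone 47, shares near the 17.2% and 18.6% of all genes. PABPC1, the main poly(A)-binding protein, had 165581 counts in clone 47, 280306 in clone 41 and 290138 in the control, or 0.590× for clone 47 and 1.08× for clone 41. The helicase gene DHX29 was at 0.619× and 0.846× in clone 47 and clone 41. Termination and recycling genes, 7 tested of 8, had median log2 ratios of -0.25 and -0.03, with MCTS1 at 0.658× for clone 47 and 0.791× for clone 41 and its partner DENR at 1.60× and 0.980× in clone 47 and clone 41.

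Partners of synthetases, 4 tested of 6, had median log2 ratios of 0.23 in clone 47 and 0.14 in clone 41. Among them FARSB, the beta subunit of the cytosolic phenylalanyl enzyme, had 10223 counts in clone 47, 5536 in clone 41 and 5514 in the control, or 1.92× for clone 47 and 1.12× for clone 41, where mitochondrial FARS2 was at 0.607× for clone 47 and 1.11× for clone 41. Mitochondrial translation factors, 9 tested of 12, had median log2 ratios of 0.03 and -0.06, and the initiation factor MTIF3 was at 2.14× in clone 47 and 0.896× in clone 41. Genes of hypusine and diphthamide synthesis, which modify eIF5A and eEF2, 6 tested of 8, had median log2 ratios of 0.23 and 0.27. None of them was 1.5-fold away in either clone. Of all genes, 18.6% were that far higher and 17.2% lower in clone 47, and 17.9% in either direction in clone 41.

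Genes of the ATF4 branch of the stress response that eIF2 kinases feed, 20 tested of 30 listed, went both ways. In clone 47, 5 were at least 1.5-fold higher and 3 lower (median -0.18), and in clone 41, 2 were higher and 2 lower (median 0.08), beside 18.6% and 17.2% of all genes in clone 47, and 17.9% in either direction in clone 41. SESN2 was at 2.16× in clone 47 and 1.12× in clone 41, CEBPB (also counted among the myeloid markers above) at 2.03× for clone 47 and 1.03× for clone 41, CTH at 0.472× for clone 47 and 1.10× for clone 41 and SLC7A11 at 0.720× for clone 47 and 0.638× for clone 41. The mTOR complex 1 list, 18 tested of 22, which also holds SESN2, had median log2 ratios of -0.18 in clone 47 and 0.05 in clone 41, with 2 of 18 at least 1.5-fold higher and 4 of 18 lower in clone 47, beside 18.6% and 17.2% of all genes. LAMTOR3 of that list was at 0.516× and 0.805× in clone 47 and clone 41.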

How the data were processed

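Per the labels' protocols, enriched mRNA was made into libraries with a strand-specific kit, amplified by PCR and sequenced as paired ends. TopHat2, TopHat, Bowtie, Cufflinks 2.2.1, Cuffdiff and build galGal4 are named in the submitters' processing notes. The count table as deposited by the authors holds unnormalised reads per gene. The deposited FPKM values are the authors' length-scaled levels. How reads were counted, with which annotation and strand option, is not stated in any source used, so antisense and near-identical genes are uncertain.

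Low counts were removed by the filterByExpr function (count of 10 and total of 15 as minimums; edgeR 4.0.16), leaving 10203 genes, and scaled by TMM. Knock-in was tested against control over all genes by edgeR's quasi-likelihood F test (newer estimator, legacy=FALSE, 1 residual degree of freedom; the single control library is taken to vary as much as the clones do) with Benjamini-Hochberg adjustment at 0.05. The script was tested on simulated data in which both clones had the same expected relative level of each gene. That gives no measure of its power where clones differ. Standard errors come from the F statistic, whose dispersion is shared largely across genes, so they are not a gene's own spread between clones. Log2 ratios per clone use a prior count of 2, and other ratios are of scaled counts, with exact conditional binomial 95% intervals. Alternatives were limma 3.58.1, DESeq2 1.42.0, other scalings, no filter and log2(FPKM + 1).

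Members and lists were chosen with earlier results of these data known. The text names members at least 2-fold from the control in either clone or leading in both clones (mean CPM at least 5), the most abundant of each class and some key factors. The other members were named after their values were seen, to complete a group. Of the genes outside the members that the rule takes, those at least 1.5-fold from the control in a clone are named, a narrowing chosen after the values were seen. A gene that the rule takes is not reported here by name, and the counts and medians over synthetase pairings leave it out. Marker and partner symbols were matched as written. RefSeq names are from assembly GRCg7b.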

Additional observations from a re-analysis of the deposited data

How the results depend on the processing

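No paired analysis was possible because the replicate numbers only name libraries and the control has 1. No member was called under any of the 7 alternatives to the main test. The count of members at least 2-fold from the control was 4 to 6 in clone 47 under other scalings, filters, priors and FPKM, and 21 at 1.5-fold; in clone 41 it was 0, except 1 with total-count scaling and 2 at 1.5-fold. Total-count scaling moved the initiation median to 0.11 in clone 47 and 0.013 in clone 41 and the synthetase median in clone 41 to 0.080; on FPKM the initiation median in clone 41 was 0.033. Over all genes total-count scaling put the median at 0.06 for clone 47 and -0.08 for clone 41. It lowered the initiation genes higher than the control in clone 41 from 28 to 20 of 38, and all genes from 5082 to 4087 of 10203. The elongation median in clone 47 stayed between -0.81 (members with a mean of at least 5 CPM) and -0.74 (total-count scaling). Leaving out 1 clone, the mean elongation median of -0.34 became -0.79 or 0.12, that of initiation genes 0.05 to 0.09 and that of synthetase genes 0.06 to 0.16, so the elongation result is that of clone 47. Fitted log2 fold changes near 0 turned sign for EPRS with DESeq2 size factors (0.0069), EIF4G1 with total-count scaling (-0.0080) and FPKM (-0.044) and GARS on FPKM (-0.042). FPKM and count ratios differed most for WARS2, at 0.935 by FPKM and 1.10 by counts in clone 47. The 2 measures put 5 members in clone 47 and 7 in clone 41 on opposite sides of the control. CARS2 was among them in clone 47, at 0.957 by FPKM and 1.10 by counts.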
